A study of Xenopus tropicalis with 4 samples.

Results

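The transcripts described here are those of 5 genes, the pou5f3 genes pou5f3.1 (gene19970), pou5f3.2 (gene17476) and pou5f3.3 (gene30538) and the lin28 genes lin28a (gene5316) and lin28b (gene3492). They are 5 of the 34177 gene identifiers in the count files of this experiment. The identifiers carry no names, and the members were found by the names that supplementary tables of the study pair with 6622 of the identifiers. The 3 pou5f3 genes lie on chromosome 8, lin28a on chromosome 2 and lin28b on chromosome 5 of the X. tropicalis v9.1 assembly from Xenbase, which the authors used. RNA was taken from animal caps (ACs), explants of the prospective ectoderm of the Xenopus tropicalis blastula that develop into an epidermis in culture, when they had reached stage NF16, the neurula. The embryos had received either a mixture of morpholinos against suv4-20h1 and against suv4-20h2 (H1H2Mo) or a control morpholino (CoMo). A morpholino is a synthetic antisense molecule that keeps an mRNA from being translated, so it lowers the protein in the injected cells and leaves the genome as it was. There were 2 libraries per condition, labelled as replicates. The paper describes more biological replicates, and any others were not analysed here. No source used here says whether same-numbered libraries share a clutch.

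Pou5f3 proteins are the frog members of class V of the POU transcription factors, the class of mammalian POU5F1 (OCT4). In the blastula and gastrula they hold cells in an uncommitted state. In Xenopus laevis the paralogs differ in timing: oct60 (pou5f3.3) is a maternal transcript, oct25 (pou5f3.2) is present in egg and gastrula, and oct91 (pou5f3.1) is transcribed by the embryo itself. Lin28 proteins are RNA-binding proteins with a cold shock domain and zinc knuckles. They block the maturation of let-7 microRNAs, and lin-28 was first described in Caenorhabditis elegans as a heterochronic gene, which sets the timing of larval cell fates. SUV4-20H enzymes turn monomethylated lysine 20 of histone H4 into its di- and trimethylated forms. According to the paper, earlier work of this laboratory had shown that the trimethylated form represses pou5f3.2 and pou5f3.1. The paper also reports that these genes were up-regulated in neurula ACs after the depletion. The comparison asks how these transcripts stand at the neurula stage when both enzymes are depleted.

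Per library, between 17027883 and 47375336 read pairs lay on the reverse strand of genes, the strand a directional kit reads, and CoMo replicate 2 was the deepest. Every gene for which 3 of the 4 libraries held a read was tested by edgeR's quasi-likelihood test, and a gene is called when its adjusted p (Benjamini-Hochberg, over all genes tested) is under 0.05. Of 19371 genes tested, 3197 were called (16.5%), 5.83% of the tested genes higher and 10.7% lower in H1H2Mo than in CoMo. The targeted transcripts do not check the labels, because a morpholino need not remove its mRNA. suv420h1 (gene4955) had 89.5 and 82.6 counts scaled to library size (TMM-normalised CPM) in the H1H2Mo libraries, against 109 and 123 CPM in the CoMo libraries. kmt5c (gene19824), the name the tables give to suv4-20h2, had 148 and 172 CPM in H1H2Mo, against 47.8 and 58.3 CPM in CoMo.

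All 3 pou5f3 genes rose in H1H2Mo ACs, lin28b fell, and lin28a did not pass the test. The steps were graded: the ratio of mean CPM, H1H2Mo over CoMo, was 11.0 for pou5f3.1, 5.50 for pou5f3.2, 3.08 for pou5f3.3, 0.671 for lin28a and 0.217 for lin28b. The 5 genes all passed the filter on low counts and 4 of them were called, against 16.5% of all genes tested. This count has little weight by itself, since those 4 genes are named in the table that the authors made from these same libraries, of which the part at hand lists the genes with the smallest p. Of the 1984 tested genes in that part, 98.9% were called here (27.9% higher and 71.0% lower), and of all 6391 tested genes with a name 39.4% were called. Only lin28a is absent from that part and has its name from a table of other libraries. pou5f3.1, pou5f3.2 and lin28b are named both in that part and in tables from other libraries, and pou5f3.3 in that part only. In bulk RNA, a change in the number of cells that express a gene and a change in its RNA per cell cannot be told apart.

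pou5f3.1 had 295 and 163 CPM in the H1H2Mo libraries, against 16.05 and 25.5 CPM in the CoMo libraries. The lowest H1H2Mo library thus stood 6.39-fold above the highest CoMo library, although H1H2Mo replicate 1 was 1.81 times replicate 2. The log2 fold change was 3.46 (standard error 0.42, 95% interval 2.55 to 4.36, adjusted p = 0.0002 from edgeR), and 99.4% of the genes tested had a lower one. By p, pou5f3.1 was in rank 4 among all genes that were higher in H1H2Mo. CoMo replicate 1 held 263 read pairs of pou5f3.1 and CoMo replicate 2 held 1120, so the transcript was measured in control ACs of neurula age too.

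pou5f3.2 had 34.0 and 21.0 CPM in H1H2Mo, against 5.19 and 4.81 CPM in CoMo. The CoMo libraries lay within counting error of each other (exact 95% Poisson intervals 4.14 to 6.41 and 4.18 to 5.51 CPM, from 85 and 211 read pairs). The H1H2Mo libraries did not, and again replicate 1 was the higher. The log2 fold change was 2.46 (standard error 0.40, 95% interval 1.60 to 3.32, adjusted p = 0.0012 from edgeR). Without CoMo replicate 1 it was 2.54 but no longer called (adjusted p = 0.067).

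pou5f3.3 had 26.7 and 25.9 CPM in H1H2Mo, against 9.52 and 7.59 CPM in CoMo. The H1H2Mo libraries differed by less than counting error, and CoMo replicate 1 was 1.25 times replicate 2. Its log2 fold change was 1.62 (standard error 0.36, 95% interval 0.84 to 2.41, adjusted p = 0.0083 from edgeR). The call was lost without CoMo replicate 1 (log2 fold change 1.81, adjusted p = 0.13) and without CoMo replicate 2 (1.49, adjusted p = 0.14). Each of these fits leaves 1 CoMo library, and without CoMo replicate 1 only 490 genes were called in all.

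lin28a had 193 and 212 CPM in H1H2Mo, against 299 and 303 CPM in CoMo. The conditions did not overlap, which also held for 59.5% of all genes tested, 28.8% of the tested genes higher and 30.7% lower in H1H2Mo. In log2, the fold change was -0.58 with a standard error of 0.33 and a 95% interval from -1.29 to 0.14, and edgeR gave an adjusted p = 0.27. A moderate decrease and no change at all are both within this interval.

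lin28b had 13.5 and 25.8 CPM in H1H2Mo, against 93.9 and 87.1 CPM in CoMo. Here the H1H2Mo libraries differed from each other by much more than the CoMo libraries did, with replicate 1 the lower. The log2 fold change was -2.21 (standard error 0.38, 95% interval -3.02 to -1.39, adjusted p = 0.0016 from edgeR). Without CoMo replicate 1 it was -2.14 and not called (adjusted p = 0.065). For pou5f3.1, pou5f3.2 and lin28b alike, H1H2Mo replicate 1 lay farther from the CoMo libraries than replicate 2 did.

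**Figure D1:**
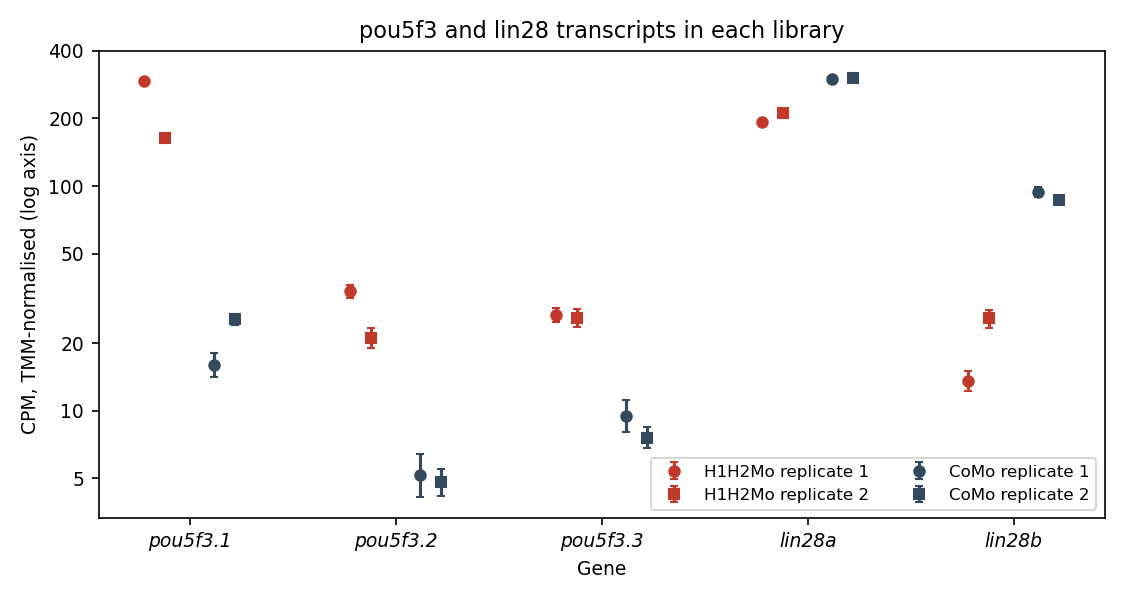
TMM-normalised CPM (log axis) of the 5 genes in each library, with H1H2Mo in red to the left and CoMo in dark blue to the right. Circles are replicate 1, squares replicate 2, and bars are exact 95% Poisson intervals, which cover counting error only. The pou5f3 genes are higher in both H1H2Mo libraries and the lin28 genes lower. The largest gap between replicates is that of lin28b in H1H2Mo (13.5 and 25.8 CPM).

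**Figure D2:**
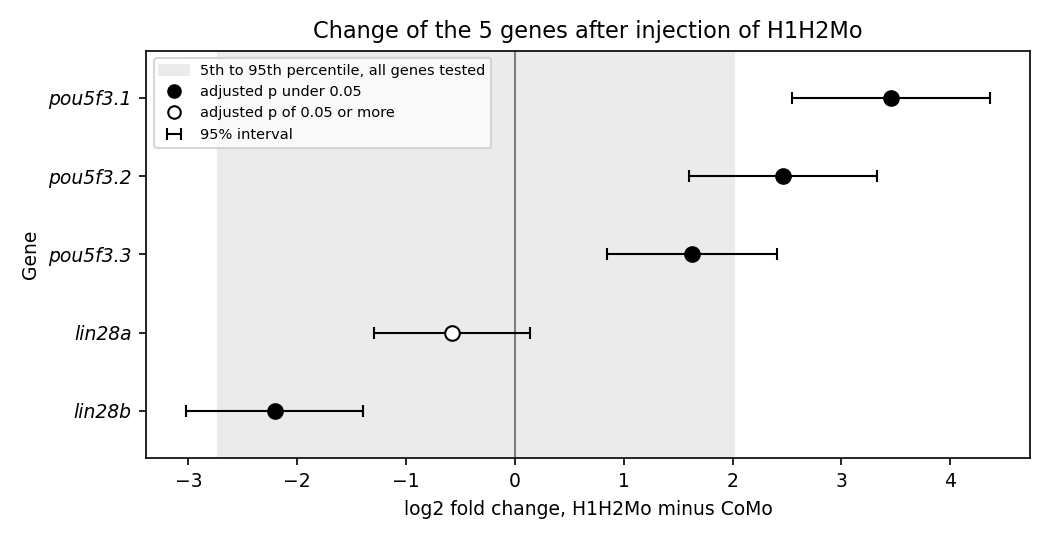
Log2 fold change of each gene, H1H2Mo minus CoMo (points, filled where called), with 95% intervals derived from the edgeR test on 2 libraries per condition. The intervals borrow variance from other genes. The grey band spans the 5th to the 95th percentile of all genes tested, -2.73 to 2.01. pou5f3.1 and pou5f3.2 lie above the band, and the interval of lin28a includes 0.

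The paralogs were then compared within each library. A ratio of the reads of a pair of genes does not depend on library size or its scaling, and their lengths drop out when the ratio is compared between conditions. For each pou5f3.2 read there were 8.67 and 7.77 pou5f3.1 reads in the H1H2Mo libraries, against 3.09 and 5.31 in the CoMo libraries. The mean log2 ratio was therefore higher by 1.03 in H1H2Mo, with a pooled SD within conditions of 0.39. For each pou5f3.3 read there were 11.0 and 6.30 pou5f3.1 reads in H1H2Mo, against 1.69 and 3.36 in CoMo, a difference in log2 of 1.81 (pooled SD 0.64). For each pou5f3.3 read there were 1.27 and 0.810 pou5f3.2 reads in H1H2Mo, against 0.545 and 0.634 in CoMo, a difference in log2 of 0.78 (pooled SD 0.34). pou5f3.1 thus stood higher relative to both other paralogs in H1H2Mo, and pou5f3.2 relative to pou5f3.3. The sizes depend on single libraries: the difference for pou5f3.1 and pou5f3.2 was 0.64 without CoMo replicate 1, and that for pou5f3.2 and pou5f3.3 was 0.46 without H1H2Mo replicate 1.

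The lin28 genes parted in the same way. For each lin28b read there were 14.2 and 8.21 lin28a reads in H1H2Mo, against 3.19 and 3.48 in CoMo, a difference in log2 of 1.70 (pooled SD 0.40). Between the families the differences were wider. The log2 ratio of pou5f3.1 to lin28b reads was 4.44 and 2.66 in the H1H2Mo libraries, against -2.54 and -1.77 in the CoMo libraries. The difference of the means was 5.70 (pooled SD 0.97). In CoMo libraries lin28b reads outnumbered pou5f3.1 reads, and in H1H2Mo libraries the order was turned round. The other 5 pairs between the families differed by 2.2 to 4.67 in log2. For all 10 pairs the libraries of the conditions did not overlap, but the pairs come from only 5 genes, and single genes did not overlap in 59.5% of all genes tested. With 2 libraries against 2, the two-sided exact permutation test gave p = 0.333 for each of the 10 pairs, also after Benjamini-Hochberg adjustment over them, which is the smallest p that this design allows.

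As a share of all pou5f3 reads, pou5f3.1 made up 82.9% and 77.7% in the H1H2Mo libraries, against 52.2% and 67.3% in the CoMo libraries. The 95% Wilson intervals of these shares (82.2% to 83.6%, 76.3% to 79.0%, 47.8% to 56.5% and 65.0% to 69.5%) did not overlap, so that libraries of the same condition also differed beyond counting error. pou5f3.3 took 7.52% and 12.3% of the pou5f3 reads in H1H2Mo, against 31.0% and 20.0% in CoMo. The summed CPM of the pou5f3 genes was 355 and 210 in H1H2Mo, against 30.8 and 38.0 in CoMo. lin28b made up 6.56% and 10.9% of the lin28 reads in H1H2Mo, against 23.9% and 22.3% in CoMo. The summed CPM of the lin28 genes was 206 and 237 in H1H2Mo, against 393 and 390 in CoMo. Read pairs that map to several places are not counted for any gene (6.81% to 8.11% of the pairs per library), so sequence shared by paralogs is not in these values.

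**Figure D3:**
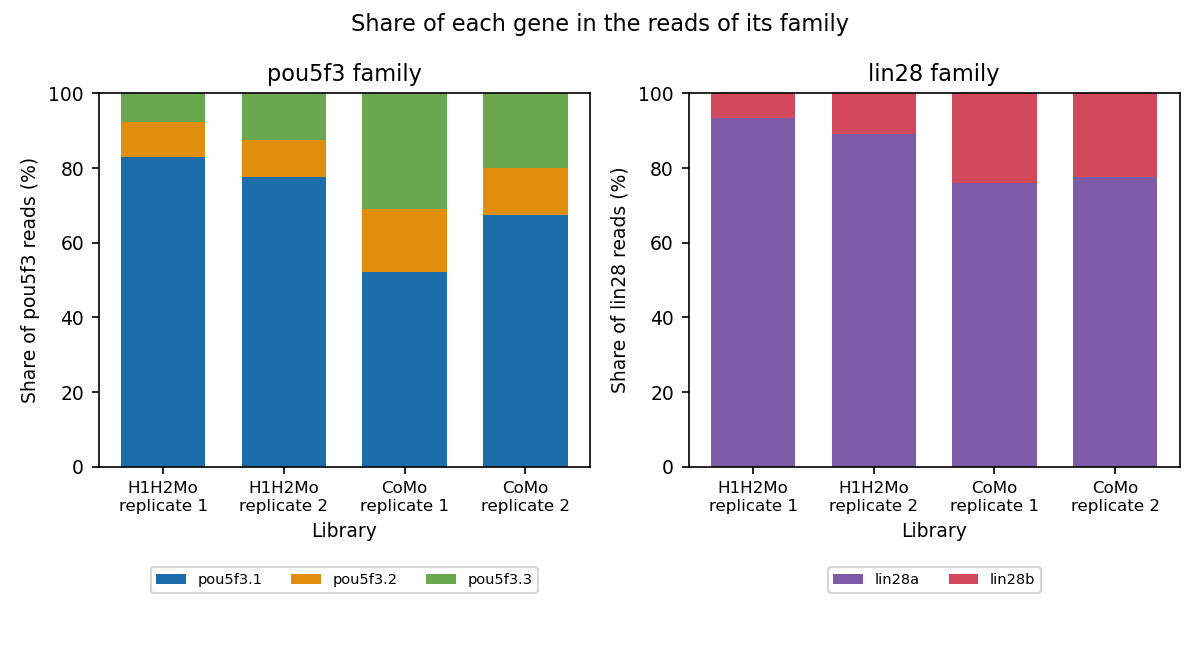
Share of each gene in the reads of its family, in percent, for the H1H2Mo libraries (left in each panel) and the CoMo libraries (right). pou5f3.1 takes 82.9% and 77.7% of the pou5f3 reads in H1H2Mo, against 52.2% and 67.3% in CoMo, and lin28b takes 6.56% and 10.9% of the lin28 reads, against 23.9% and 22.3%. Shares and the size of their change also depend on transcript length, which was not used.

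For none of the 5 genes did the CPM of the conditions overlap, so leaving out a library could hardly turn a direction round. The direction of all 5 fold changes was kept under each of 13 other settings of the analysis. For pou5f3.1, which stayed called in each of them, the log2 fold change lay between 2.97 and 3.86. It lay between 2.07 and 2.77 for pou5f3.2, between 1.49 and 1.81 for pou5f3.3, between -0.64 and -0.49 for lin28a and between -2.74 and -1.81 for lin28b. The ends of these ranges came from fits that leave out a library, except the upper end for lin28a, which came from upper-quartile normalization.

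**Figure D4:**
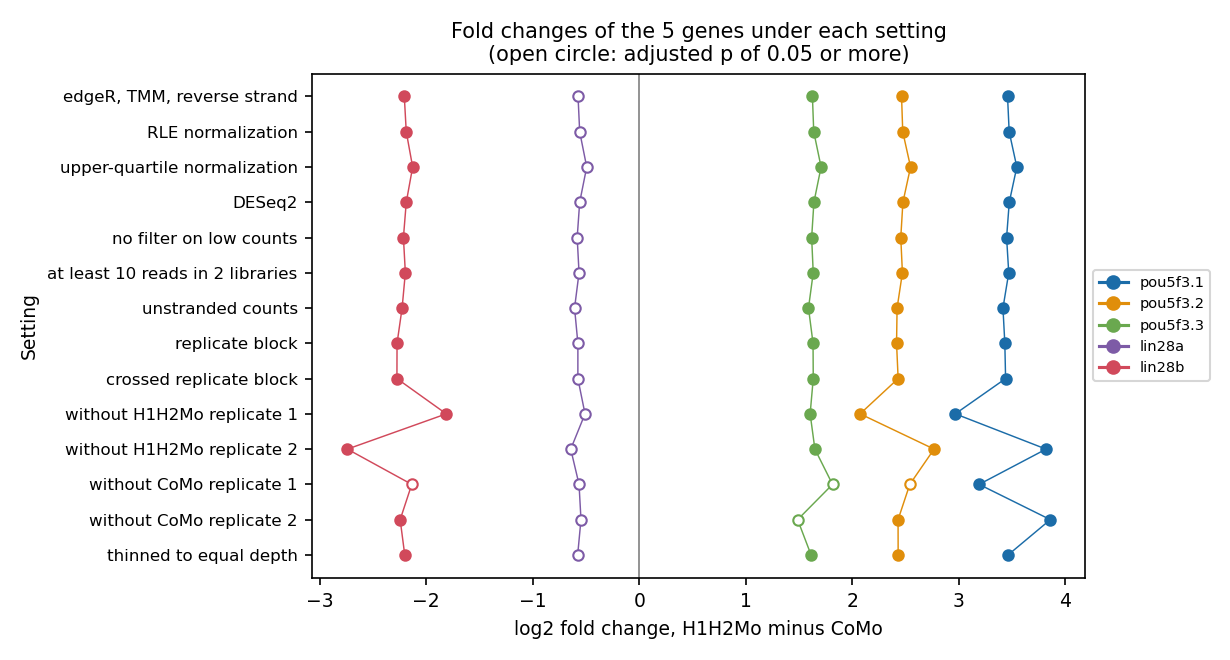
Log2 fold change (H1H2Mo minus CoMo) of the 5 genes under the main setting (top row) and 13 alternatives; filled circles are called and open circles are not. The order of the genes is the same in every row, which the lack of overlap in all 10 ratios between them nearly fixed. The fits without a CoMo library lose the call of pou5f3.3, and the fit without CoMo replicate 1 also those of pou5f3.2 and lin28b.

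Genes with a like profile were sought among 4630 tested genes with a symbol and a mean of at least 50 counts. Likeness was the Euclidean distance of log2 CPM, centred on the mean of the 4 libraries, and with so few libraries it describes little more than the size of the change and the gaps between replicates. Nearest to pou5f3.1 were pla2g12b (distance 0.27), limk1 (0.46) and mreg (0.66). Nearest to pou5f3.2 were vav2 (0.15), tmem177 (0.24) and irak1 (0.32), and nearest to pou5f3.3 were tbl2 (0.083), alkbh8 (0.12) and kctd5 (0.15). lin28a had its nearest profiles in arap3 (0.055), polr3c (0.070) and zswim1 (0.088), and lin28b in ccdc146 (0.070), tp73 (0.082) and poc5 (0.085). The nearest profile of pou5f3.1 was farther away than all 3 named for pou5f3.3, lin28a or lin28b. Few genes changed as much, since 99.4% of the genes tested had a lower log2 fold change than pou5f3.1. Its nearest gene, pla2g12b, was near the floor in CoMo, with 0.305 and 0.661 CPM.

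In the RefSeq annotation of another X. tropicalis assembly (UCB_Xtro_10.0) the pou5f3 genes follow each other as pou5f3.3, pou5f3.2 and pou5f3.1, with no other protein-coding gene between them. Their neighbours were looked up after the values of the pou5f3 genes were known. Of the 20 nearest protein-coding genes, 10 on each side, 6 have an identifier with a name and were tested. Of these, 3 were called higher and 0 lower, against 13.0% higher and 26.4% lower among all 6391 tested genes with a name. Which of the 6 are named in the authors' table of these libraries, where 98.9% of the tested genes were called, was not examined. zmynd19 had 28.2 and 33.4 CPM in H1H2Mo, against 6.10 and 8.89 CPM in CoMo (log2 fold change 2.03, adjusted p = 0.0028 from edgeR). man1b1, a mannosidase of the endoplasmic reticulum, had 62.9 and 15.4 CPM in H1H2Mo, against 6.47 and 12.8 CPM in CoMo (2.01, adjusted p = 0.028 from edgeR). coq4, of coenzyme Q synthesis, had 32.3 and 32.3 CPM in H1H2Mo, against 15.6 and 14.0 CPM in CoMo (1.12, adjusted p = 0.037 from edgeR). In gene steps from the cluster, zmynd19 lay 9, man1b1 6 and coq4 7 away. The tested gene closest to the cluster, abca2, lay 2 steps away and was not called. Its conditions overlapped, with 26.0 and 7.99 CPM in H1H2Mo, against 3.36 and 8.58 CPM in CoMo. The tested neighbours dph7 (1.04) and LOC100485040 (2.26) were not called either. The other neighbours of the cluster were not tested. Around lin28a, 1 of 3 such genes was called higher (arid1a, 1.82) and 1 lower (ubxn11, -1.62), and around lin28b 1 of 4 higher (prep, 1.27) and 0 lower.

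The other POU genes were then examined. Of the 5 with a name, 0 were called higher by edgeR (1 at an unadjusted p under 0.05, and 1 by DESeq2) and 2 lower, against 13.0% higher and 26.4% lower among tested genes with a name. Both lower genes are named in the authors' table of these libraries. The median log2 fold change was -0.14, against 0.05 over all genes tested. pou2f3 had 1.95 and 3.3 CPM in H1H2Mo, against 72.1 and 69.0 CPM in CoMo (log2 fold change -4.76, adjusted p = 5.1e-05 from edgeR). pou4f1.2, whose mammalian relative marks sensory neurons, had 0.505 and 0.447 CPM in H1H2Mo, against 2.75 and 3.95 CPM in CoMo (-2.80, adjusted p = 0.013 from edgeR). pou2f1, the widely expressed octamer factor OCT1, had 122 and 102 CPM in H1H2Mo, against 38.4 and 66.3 CPM in CoMo (1.09, adjusted p = 0.052 from edgeR). It missed the threshold narrowly. It was called higher under 6 other settings of the analysis that use all libraries, DESeq2 and RLE normalization among them. Of these, 1 (the pairs crossed as a block) was chosen after seeing the data. With at least 10 reads in 2 libraries, with unstranded counts and with libraries thinned to equal depth, 0 other POU genes were called higher.

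Around pou5f3 stands a network of transcription factors that act in the blastula and in other uncommitted cells. Of 33 genes listed for it, 18 have a name in the tables and all of these were tested. 6 were called higher and 2 lower, against 13.0% higher and 26.4% lower among all tested genes with a name, and the median log2 fold change was 0.92. The ventx genes, homeobox factors that act downstream of BMP and have been likened to nanog, which frogs lack, were the largest group. ventx1.1 had 64.7 and 60.4 CPM in H1H2Mo, against 13.8 and 11.6 CPM in CoMo (log2 fold change 2.30, adjusted p = 0.00059 from edgeR). ventx3.2 had 4.98 and 8.16 CPM in H1H2Mo, against 0.427 and 0.160 CPM in CoMo (4.6, adjusted p = 0.0008 from edgeR), and ventx1.2 had 12.4 and 8.94 CPM, against 1.95 and 1.03 CPM (2.88, adjusted p = 0.0023 from edgeR). The remaining ventx genes, ventx2.1 (0.98) and ventx2.2 (0.86), were not called. zic1, a factor of the neural plate, had a log2 fold change of 2.19, klf17 one of 1.36 and zic2 one of 1.5.

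The lower genes were snai2 (-3.48), a factor of the neural crest, and its relative snai1 (-1.58). The network genes with the highest mean CPM were not called: tfap2a, of ectoderm and neural crest, had 193 and 260 CPM in H1H2Mo, against 432 and 450 CPM in CoMo, and sall4 had 227 and 196 CPM, against 288 and 374 CPM. zic2 and snai1 are named to complete the count, after their values were seen. Of the 18 genes, 7 are named in the authors' table of these libraries, and these are 7 of the 8 called. Most calls of this list were thus nearly fixed by that table. Without CoMo replicate 1, 3 genes of the list were called higher and 1 lower, and without CoMo replicate 2 these numbers were 2 and 1. Without H1H2Mo replicate 2 they were 8 and 4.

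Genes of early mesoderm and endoderm, in whose control Pou5f3 proteins take part, were listed together with factors that act in their induction, such as foxh1. Of 23 genes listed, 13 have a name, and all of these were tested. By edgeR, 5 were called higher and 0 lower, against 13.0% higher and 26.4% lower among tested genes with a name. At an unadjusted p under 0.05 and by DESeq2, 0 were lower as well. Each of the 13 had a positive fold change, with a median of 2.26 in log2. However, eomes, mixer, mix1, sox17b.2, lefty, foxa4, admp and wnt8a were near the floor in CoMo, with means from 0.09 CPM (mix1) to 0.77 CPM (wnt8a). In CoMo replicate 1, mixer and mix1 had 0 CPM, so they passed the filter only with reads in both H1H2Mo libraries. The sign of such genes has little weight. Of the 5 called, foxh1, vegt and foxa4 are named in the authors' table of these libraries. foxh1, the partner of Smad proteins in nodal signalling, had 75.7 and 126 CPM in H1H2Mo, against 17.1 and 22.5 CPM in CoMo (log2 fold change 2.34, adjusted p = 0.00098 from edgeR). vegt, a maternal T-box factor, had 57.6 and 39.7 CPM in H1H2Mo, against 7.87 and 12.3 CPM in CoMo (2.26, adjusted p = 0.0015 from edgeR). The other 3 called genes were each high in 1 H1H2Mo library. wnt8a, a ligand of ventral mesoderm, had 1.48 and 32.1 CPM in H1H2Mo, against 1.04 and 0.502 CPM in CoMo. admp, a ligand of the organizer, had 31.4 and 0.168 CPM in H1H2Mo, against 0.610 and 0.0228 CPM in CoMo, and foxa4, also of the organizer, had 9.45 and 0.614 CPM, against 0.610 and 0.137 CPM. So organizer genes were high in H1H2Mo replicate 1 and wnt8a in H1H2Mo replicate 2. The number called higher was 3 without H1H2Mo replicate 1, 10 without H1H2Mo replicate 2, 0 without CoMo replicate 1 and 2 without CoMo replicate 2.

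Transcripts of the egg and of the germ line were followed because pou5f3.3 and pou5f3.2 are maternal in part. Of 14 with a name, all tested, 6 were called higher and 1 lower, against 13.0% higher and 26.4% lower among tested genes with a name, and the median log2 fold change was 1.19. All the called genes except zp4 are named in the authors' table of these libraries, so most of these calls too were nearly fixed by that table. zp2, of the egg coat, had 83.8 and 116 CPM in H1H2Mo, against 17.9 and 24.0 CPM in CoMo (log2 fold change 2.25, adjusted p = 0.0009 from edgeR). velo1, a protein of the Balbiani body of the oocyte, had 16.6 and 26.9 CPM in H1H2Mo, against 3.84 and 3.51 CPM in CoMo (2.56), and the oocyte factor gdf9 had 26.2 and 41.1 CPM, against 7.63 and 8.69 CPM (2.04). dnd1 (2.21) and tdrd1 (2.23), of the germ line, and zp4 (1.26), also of the egg coat, were called higher as well. zar1, an oocyte protein, had 8.51 and 6.37 CPM in H1H2Mo, against 8.54 and 6.71 CPM in CoMo, a log2 fold change of -0.03 (chosen after its value was seen). ccna1, an embryonic A-type cyclin, fell to 49.9 and 72.6 CPM in H1H2Mo, against 262 and 257 CPM in CoMo. The number called higher was 0 without CoMo replicate 1 and 3 without CoMo replicate 2.

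On the side of lin28, few genes of the small RNA pathway have a name here. Of the 3 that do, 0 were called by edgeR in either direction (0 also at an unadjusted p under 0.05 and by DESeq2): the Argonaute gene ago4 had a log2 fold change of 0.41, tnrc6a, whose protein binds Argonaute, one of 0.66, and zcchc11 one of -0.10. zcchc11 encodes the uridylyl transferase that Lin28 recruits to let-7 precursors in mammals, and had 85.0 and 141 CPM in H1H2Mo, against 107 and 134 CPM in CoMo. Of 14 named genes that are let-7 targets in mammals, 2 were called higher and 3 lower, shares close to the 13.0% higher and 26.4% lower among all tested genes with a name, and the median log2 fold change was -0.06. Of the 5 called, 4 are named in the authors' table of these libraries. cdk6, a kinase of the cell cycle, had 1.44 and 1.45 CPM in H1H2Mo, against 12.5 and 8.39 CPM in CoMo (-2.84, adjusted p = 0.0018 from edgeR). fign, of a family of microtubule-severing ATPases, had 15.7 and 13.4 CPM in H1H2Mo, against 63.2 and 59.8 CPM in CoMo (-2.08, adjusted p = 0.0011 from edgeR). The small GTPase gene hras had 53.3 and 117 CPM in H1H2Mo, against 23.3 and 28.2 CPM in CoMo (1.72), and cdc25a, a phosphatase that starts the cell cycle, had 189 and 219 CPM, against 40.5 and 95.6 CPM (1.58). The targets with the highest mean CPM were not called: arid3a had 722 and 768 CPM in H1H2Mo, against 1542 and 1661 CPM in CoMo. nr6a1, whose protein represses Pou5f1 in the mouse, had 351 and 661 CPM in H1H2Mo, against 917 and 1178 CPM in CoMo (-1.05, adjusted p = 0.1 from edgeR). Without CoMo replicate 1, no target was called in either direction, and without H1H2Mo replicate 2 there were 3 higher and 5 lower.

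**Figure D5:**
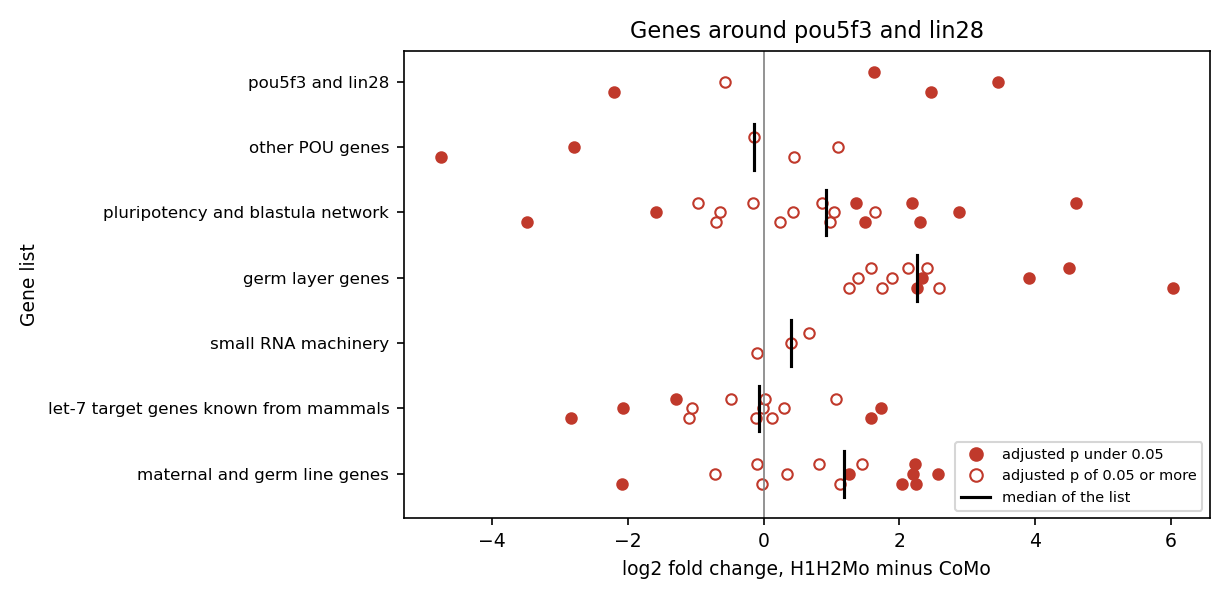
Log2 fold change (H1H2Mo minus CoMo) of the 5 genes and of every tested gene with a name in each list around them; filled circles are called, and black bars are the medians of the lists. All 13 germ layer genes lie above 0, with a median of 2.26, though the conditions overlapped for sox17a, chrd and admp. Many of these genes, mixer and mix1 among them, were near the floor in CoMo. The let-7 targets scatter around a median of -0.06.

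Among 4 genes of H4K20 methylation, kmt5c rose (log2 fold change 1.59, adjusted p = 0.0055 from edgeR), and suv420h1 (-0.44), setd8 (-0.02), the monomethylating enzyme, and phf8 (0.02), a demethylase, were not called. Among all tested genes with a name, 13.0% were called higher. kmt5c is named in the authors' table of these libraries, where 98.9% of the tested genes were called. Without either CoMo library the call of kmt5c was lost.

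Many markers of cell types were, like lin28b, lower in H1H2Mo, and many others were not called. The ACs expressed epidermal genes in all libraries, but edgeR called 5 of 8 epidermal markers lower in H1H2Mo and 0 higher (0 higher also at an unadjusted p under 0.05 and by DESeq2). Among tested genes with a name, 26.4% were lower, and the 5 called markers are all named in the authors' table of these libraries, of which 71.0% were called lower. The summed level of the epidermal markers was 3133 and 2254 CPM in H1H2Mo, against 4690 and 4917 CPM in CoMo. Most of this sum was cdh1 and epcam, neither of them called. cdh1 had 1089 and 767 CPM in H1H2Mo, against 1507 and 1791 CPM in CoMo. epcam had 1782 and 1158 CPM, against 1011 and 1485 CPM, a higher mean in H1H2Mo. tp63, a factor of basal epidermis, had 67.1 and 125 CPM in H1H2Mo, against 279 and 493 CPM in CoMo. Lower in H1H2Mo were also 2 of 3 goblet cell markers, 3 of 6 of multiciliated cells, 2 of 5 of ionocytes and 3 of 3 of small secretory cells, and edgeR called none of these higher (1 multiciliated cell marker was, at an unadjusted p under 0.05 and by DESeq2). The 5 neural markers, all lower, and the 3 small secretory cell markers are likewise all named in that table, which nearly fixes their calls. The same holds for the 3 called markers of multiciliated cells and the 2 called markers of ionocytes. Of the 2 called goblet cell markers, itln1 is named there and agr2 is not. The summed level of the neural markers was 6.10 and 12.1 CPM in H1H2Mo, against 169 and 40.6 CPM in CoMo, so the CoMo libraries held unequal amounts of neural transcripts. The muscle markers summed to 7.32 and 8.60 CPM in H1H2Mo, against 26.9 and 16.9 CPM in CoMo, and the endoderm markers to 18.8 and 4.36 CPM, against 2.32 and 4.90 CPM. Markers of blood and endothelium summed to 27.5 and 45.0 CPM in H1H2Mo, against 89.5 and 72.5 CPM in CoMo. In the neural crest, snai2 was lower and twist1 (1.63) not called, and sox10 had too few reads to be tested. What part these markers' cells had in the values of the pou5f3 and lin28 genes was not tested.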

How the data were processed

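RNA-seq of X. tropicalis ACs at NF16 was used, 2 libraries per condition. The authors aligned paired-end reads with STAR 2.7.1a to X. tropicalis v9.1 and counted them per gene in the same run; these counts were deposited without normalization, for either strand and for each strand. The reverse-strand counts were used, as at least 97.5% of the stranded reads lay there. A line that names no gene (0.0675% to 0.242% of the reads) was left out.

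Counts were compared with edgeR 4.0.16 (TMM, quasi-likelihood) in R 4.3.3; DESeq2 1.42.0 was an alternative. Log2 CPM and read ratios carry a prior count of 2. Exact permutation tests used SciPy 1.17.1. Intervals of counts and shares cover counting error only. The fit was tested on simulated data. The depth was 27953725 to 74932999 read pairs per library, of which 17027883 to 47375336 lay on the reverse strand of genes.

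The members, the lists and the tests were chosen with earlier results of these data known. Named were the members, the morpholino targets, up to 6 called genes by p and the 2 with the highest mean CPM per list, and the 3 nearest profiles per member; 1 gene that this rule names is not reported here. Names came from the part of the study's tables at hand, whose comparisons of the authors (fold changes, p-values) were not used. The same-numbered libraries had a correlation of -0.13 between their deviations from the condition means.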

Additional observations from a re-analysis of the deposited data

Results flagged for a closer look

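A few values lie outside the reverse-strand counts compared above and were higher in both H1H2Mo libraries than in both CoMo libraries. Forward-strand reads of pou5f3.1 amounted to 0.436 on the CPM scale (relative to reverse-strand reads) in H1H2Mo (15 and 5 read pairs), against 0.0505 in CoMo (1 and 2 read pairs). Relative to all stranded reads of pou5f3.1, they were 0.183% and 0.171% in H1H2Mo, against 0.379% and 0.178% in CoMo, so this share overlapped between the conditions. Forward-strand reads of pou5f3.2 amounted to 0.911 on the same scale in H1H2Mo (32 and 10 read pairs), against 0.149 in CoMo (4 and 3 read pairs). Relative to all stranded reads of pou5f3.2, they were 3.29% and 2.59% in H1H2Mo, against 4.49% and 1.40% in CoMo, which overlapped as well. The line of the files that names no gene held on average 0.216% of the reverse-strand reads in H1H2Mo, against 0.111% in CoMo. What these reads come from was not tested.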

How the results depend on the processing

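The 13 alternatives kept the sign of all 5 members' fold changes, which the lack of overlap between the conditions nearly fixed. Calls of members were lost only where a CoMo library was left out. Leaving out each library in turn put the log2 fold change of pou5f3.2 between 2.07 and 2.77, of pou5f3.3 between 1.49 and 1.81 and of lin28b between -2.74 and -1.81. It put the number of genes called between 490 and 4376 (29 to 1866 higher, 461 to 2535 lower), with 490 without CoMo replicate 1 and 1153 without CoMo replicate 2. The lone library is assumed to vary like the other condition, and the cause of this dependence was not tested. In the same fits, the calls lay between 0 and 1 higher and between 1 and 2 lower for the other POU genes, between 2 and 8 higher and between 1 and 4 lower for the blastula network, between 0 and 10 higher for the germ layer genes, between 0 and 3 higher and between 0 and 5 lower for the let-7 targets, between 0 and 6 higher and between 0 and 2 lower for the maternal genes, and between 0 and 1 higher for the H4K20 genes. The change of the pou5f3.2 to lin28b ratio lay between 3.86 and 5.48.

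Blocking on the replicate number, edgeR called 3280 genes, 1 other POU gene higher and 5 let-7 targets lower, and the block changed no call of a member. RLE, upper-quartile normalization, DESeq2 and no filter on low counts also called 1 other POU gene higher. Without the filter, 9 germ layer genes were higher and 5 let-7 targets lower, and with libraries thinned to equal depth 3 germ layer genes were higher. With the pairs crossed as a block, chosen after seeing the data, 4844 genes were called (2013 higher), among them 1 other POU gene and 8 germ layer genes higher and 2 maternal genes lower.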
